A study of Mus musculus with 12 samples.

Results

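The genes described here are 32 type I interferon-stimulated genes of the mouse, genes whose transcription rises in nearly every cell type that meets interferon alpha or beta. They were taken by symbol from a table of 35599 genes, all 32 were found there, and they cover the transcription factors of the response, the ISG15 system, sensors of foreign or misplaced nucleic acid, and effectors that block steps of virus growth. The values are bulk RNA levels of whole lung, 4 libraries in each of 3 groups. Saline lung was the control. AE-PF lung came from mice given bleomycin (BLM), a drug that scars the lung, together with lipopolysaccharide (LPS), a component of the bacterial outer membrane, as a model of an acute exacerbation of pulmonary fibrosis, and was left untreated. ND-RHL lung came from mice with the same challenge that then received liposomes loaded with nintedanib, a tyrosine kinase inhibitor used against fibrosis, and dexamethasone, a synthetic glucocorticoid, the liposome surface carrying hyaluronic acid (HA) and RGD peptides. All groups were sampled at the end of the model. Strain, sex, age, doses and times are not given in the sources used here, and no group with empty liposomes or either drug alone was analysed here. The labels do not say that the 4 libraries of a group came from separate animals, so the p-values measure the spread between these libraries, which may be technical.

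Type I interferons bind a receptor made of IFNAR1 and IFNAR2, and the kinases JAK1 and TYK2 attached to it phosphorylate transcription factors of the STAT family, among them STAT2, which acts with IRF9 in a complex called ISGF3, which binds a short promoter element, the interferon-stimulated response element (ISRE), at genes such as those described here. In the lung, interferon beta is made by epithelial cells and macrophages after viral RNA or LPS is sensed, LPS acting through TLR4 and its adaptor TICAM1, and interferon alpha is a main product of plasmacytoid dendritic cells. IRF7 is itself induced, so that the response feeds on itself, and USP18 and SOCS1 bring it down.

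Promoters that hold the ISRE letters are shown because these letters are the part of the sequence that many members have in common. Promoter windows of 300 bases, from 250 before to 50 after the start of a gene, were taken from RefSeq (build GRCm38.p6), which gave a window for 22 of the 32 members. A script searched them on both strands for GAAANNGAAA, the ISRE core, and for TTCNNNGAA, the gamma-activated site (GAS), the element of the interferon-gamma response. The ISRE letters were in the windows of 13 of 22 members (59.1%) and of 3.99% of 27025 genes with a window, and overlapping matches were counted separately. The GAS letters were in 5 of 22 members (22.7%) and in 9.55% of all genes. Parts of 8 windows follow, 5′ to 3′ in the direction of the gene, with the ISRE letters in capitals (TTTCNNTTTC is the same element on the other strand).
Isg15 (chr4:156200855-156200916, minus strand): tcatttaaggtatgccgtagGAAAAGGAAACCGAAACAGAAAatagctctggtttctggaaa
Ifit1 (chr19:34640765-34640833, plus strand): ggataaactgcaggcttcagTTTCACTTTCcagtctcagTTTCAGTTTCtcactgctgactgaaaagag
Ifit3 (chr19:34583353-34583436, plus strand): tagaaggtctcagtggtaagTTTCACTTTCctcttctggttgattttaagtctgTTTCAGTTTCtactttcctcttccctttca
Ifit3b (chr19:34607749-34607832, plus strand): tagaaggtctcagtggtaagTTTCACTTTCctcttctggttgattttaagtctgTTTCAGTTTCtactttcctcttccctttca
Oas1a (chr5:120907526-120907565, minus strand): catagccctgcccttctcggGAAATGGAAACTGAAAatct
Rsad2 (chr12:26456543-26456592, minus strand): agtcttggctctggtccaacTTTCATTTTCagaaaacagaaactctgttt
Stat2 (chr10:128270256-128270305, plus strand): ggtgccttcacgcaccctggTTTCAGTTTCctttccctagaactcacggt
Bst2 (chr8:71537567-71537622, minus strand): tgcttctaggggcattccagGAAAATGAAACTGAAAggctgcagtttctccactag
Isg15, which encodes a ubiquitin-like protein, held 3 overlapping matches between 78 and 66 bases before its start. Ifit1 and Ifit3, which encode proteins that bind foreign RNA, each held 2 separate matches on the reverse strand, and the printed stretches of Ifit3 and its neighbour Ifit3b are the same letter for letter, within a run of 169 identical bases. Oas1a, whose enzyme makes the messenger 2-5A, held 2 overlapping matches ending near its start. Bst2, which encodes the virion tether tetherin, held 2 overlapping matches. Rsad2, which encodes viperin, and Stat2 held 1 each. Among the 13 members with the letters, 1 was higher and 2 were lower in AE-PF than saline lung, 1 was higher in ND-RHL than AE-PF lung, and 4 were higher in ND-RHL than saline lung, by the limma test described next. Among the 9 with a window and no match, these counts were 0, 3, 6 and 4, and among the 10 with no window in the table they were 2, 1, 6 and 3. Of all genes tested, the same calls were made for 26.4%, 30.2%, 24.3% and 13.3%. A match of letters is a description of the sequence and does not show that a factor binds there.

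Between 16152379 and 21667129 fragments per library had been assigned to genes. FPKM scales fragments by gene length and by this total, and 14052 to 15020 genes had 1 FPKM or more. Markers of lung tissue were present throughout, with Sftpc (surfactant protein C) at 969 FPKM or more in every library, though lower in AE-PF than saline lung. AE-PF library 2 and ND-RHL library 4 stood apart by transcripts of other tissues. The summed FPKM of 9 squamous epithelium markers was 1799 and 6006 there and at most 51.7 in the other 10 libraries, and that of 6 skeletal muscle markers was 693 and 1673 there and at most 130 elsewhere. The members' values rested on 58 to 7085 fragments each, and 3 fragments correspond to 0.138 to 0.186 FPKM for a gene of 1 kb, counting error only.

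The members were compared by limma on log2(FPKM + 1), fitted over all 15164 genes that reached 1 FPKM in 4 or more libraries, with Benjamini-Hochberg adjustment over these genes and a threshold of 0.05. All 32 members were tested. Each fold is 2 to the power of a difference in log2(FPKM + 1), so that for low genes it is smaller than the ratio of their FPKM. The 3 comparisons share libraries, so they are not independent of each other. As the libraries are of whole tissue, fewer cells of a type and less RNA per cell cannot be told apart.

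The challenge alone left the members without a common direction. In AE-PF against saline lung, 3 of 32 members were higher (Zbp1, Eif2ak2 and Mx1), 6 were lower (Irf9, Stat2, Cmpk2, Parp14, Xaf1 and Slfn5) and 23 did not pass the test. Of all genes tested, 26.4% were called higher and 30.2% lower, and of the members 9.38% and 18.8%, so the members' shares were below the background in both directions. The median log2 difference of the members was -0.01, and that of all genes tested was -0.03. AE-PF values lay above every saline value for 3 members and below every saline value for 3 (25.3% and 29.0% of all genes).

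In ND-RHL lung no member was called lower than in either other group. Against AE-PF lung, 13 of 32 members were higher (Irf9, Usp18, Ifih1, Dhx58, Oas2, Oasl2, Cmpk2, Samhd1, Parp14, Xaf1, Ifi44, Ifi27l2a and Rtp4) and 0 were lower by limma, which is 40.6% and 0% of the members and 24.3% and 17.4% of all genes tested. At an unadjusted p under 0.05 these counts were 16 and 0, and limma-voom on fragment counts gave 12 and 0. The median log2 difference was 0.42 for the members and 0.06 for all genes, and 32 of 32 members had a positive difference, as did 58.1% of all genes. With every library scaled to the same FPKM total the difference was negative for 4 of them, Eif2ak2, Oasl1, Zbp1 and Ifit2, with quantile normalisation for Oasl1 and Ifit2, and with limma-voom for Eif2ak2 and Ifit2. ND-RHL values lay above every AE-PF value for 10 members and below for 0 (21.2% and 15.6% of all genes).

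Against saline lung, 11 members were higher in ND-RHL lung (Irf7, Ifih1, Dhx58, Zbp1, Eif2ak2, Oas1a, Oasl2, Mx1, Rsad2, Samhd1 and Ifi44) and 0 were lower, which is 34.4% and 0% of the members and 13.3% and 8.65% of all genes tested. The counts at an unadjusted p under 0.05 were 18 and 0, and by limma-voom 12 and 0. The median log2 difference was 0.45 for the members and 0.03 for all genes. ND-RHL values lay above every saline value for 21 members and below every saline value for 1, Slfn5 (18.1% and 11.8% of all genes). In 11 members no comparison passed the test: Isg15, Ifit1, Ifit2, Ifit3, Ifit3b, Oas3, Oasl1, Mx2, Bst2, Trim30a and Parp9.

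**Figure D1:**
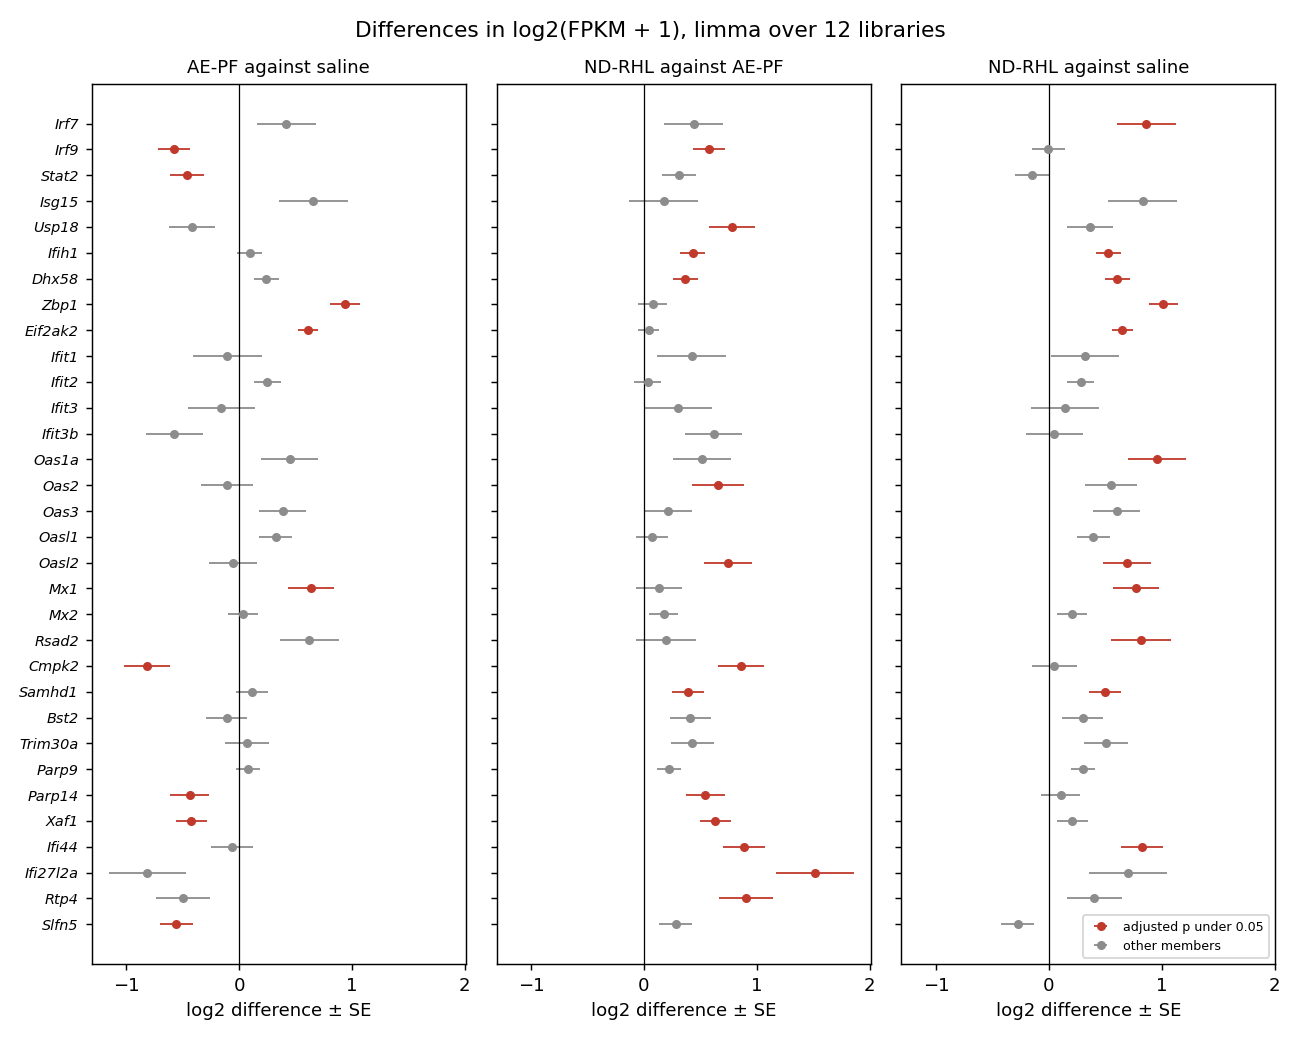
Log2 difference in log2(FPKM + 1) ± SE for each of the 32 members (rows) in the 3 comparisons (panels), from the limma fit over 12 libraries; red points passed an adjusted p of 0.05 and grey points did not. In the left panel the points lie on both sides of 0 with a median of -0.01, in the middle panel all 32 lie right of 0, and in the right panel 29 do.

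These counts moved with single libraries. In AE-PF against saline, 10 members were higher and 3 lower without AE-PF library 2, 5 were higher and 3 lower without AE-PF library 1, and 3 were lower without saline library 3. In ND-RHL against AE-PF, 8 members were higher without AE-PF library 1 and 21 without AE-PF library 4. In ND-RHL against saline, 5 were higher without saline library 1 or 2, 7 without saline library 4, 7 without ND-RHL library 1, 6 without ND-RHL library 2 and 7 without ND-RHL library 4. A fit of saline and ND-RHL lung alone, which leaves the wide AE-PF spread out of the error, called 21 higher and 1 lower, Slfn5. With the replicate number as a block, that comparison lost Rsad2 (adjusted p = 0.0588) and gained Trim30a (adjusted p = 0.0471). Zbp1 and Eif2ak2 higher, and Irf9, Cmpk2 and Slfn5 lower, in AE-PF than saline lung were called in all 23 alternatives. So were Irf9, Usp18, Ifih1, Cmpk2, Xaf1, Ifi27l2a and Rtp4 higher in ND-RHL than AE-PF lung, and Ifih1, Zbp1 and Eif2ak2 higher in ND-RHL than saline lung.

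The spread of the members within AE-PF lung was unlike that within the other groups. In 32 of 32 members AE-PF libraries 1 and 2 held the lowest values of the group, an order found in 41.2% of all genes tested. Library 2 was the lowest in 28 members (40.2% of all genes) and library 4 the highest in 31 (27.6% of all genes). This order was singled out after the values had been seen and carries no test. By their fragment counts over genes in general, AE-PF libraries 3 and 4 were also more alike than any other pair within a group. The median difference of the members from the saline mean on the log2(FPKM + 1) scale was -0.20, -0.51, 0.27 and 0.45 in AE-PF libraries 1 to 4, and 0.40, 0.57, 0.32 and 0.40 in the ND-RHL libraries. The median member was thus below its saline level in AE-PF libraries 1 and 2 and above it in libraries 3 and 4.

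Counted by member, AE-PF libraries 1 and 2 lay above every saline value in 6 and 3 members (35.3% and 36.3% of all genes tested) and below every saline value in 17 and 22 (45.8% and 45.6%). Libraries 3 and 4 lay above every saline value in 22 and 23 (39.6% and 38.6% of all genes) and below in 7 and 3 (37.4% and 38.2%). The ND-RHL libraries lay above every saline value in 26, 29, 24 and 23 members (35.3% to 40.4% of all genes) and below in 2, 1, 2 and 4 (27.0% to 33.3%). Set against the ND-RHL values, AE-PF libraries 1 and 2 were below all 4 in 32 and 32 members, library 3 in 14 and library 4 in 10 (44.3%, 43.9%, 32.3% and 33.3% of all genes tested). Library 4 was above all 4 in 9 members (27.7% of all genes), so that its counts were near the background in both directions. The SD of a member within AE-PF lung, on the log2(FPKM + 1) scale, had a median of 0.467, with 32 of 32 members above the median of all genes (0.132). In saline lung the members' median SD was 0.108 against 0.0928 for all genes, and in ND-RHL lung 0.148 against 0.131. The highest AE-PF library exceeded the lowest 2.06-fold in the median member, from 1.29-fold in Eif2ak2 to 3.79-fold in Rsad2, and 1.29-fold in the median gene tested.

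**Figure D2:**
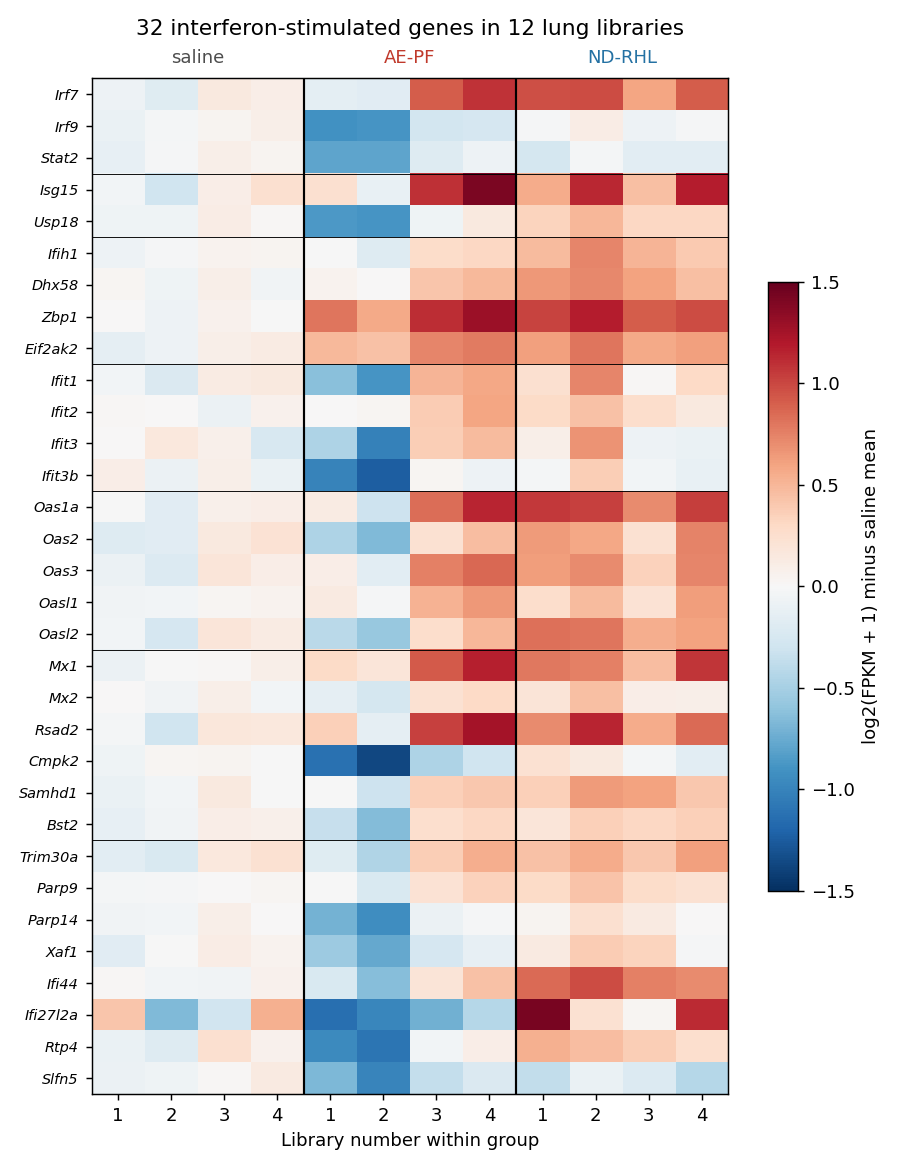
Colour gives log2(FPKM + 1) minus the saline mean for each of the 32 members (rows, grouped by role) in each of the 12 libraries (columns, by group and library number); red is above and blue below the saline mean, on a scale from -1.5 to 1.5. AE-PF libraries 1 and 2 are bluer or paler than AE-PF libraries 3 and 4 in all 32 rows, and the members' median SD is 0.467 within AE-PF and 0.148 within ND-RHL lung.

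Other transcripts moved in the same AE-PF libraries. The summed FPKM of 6 natural killer cell markers was 4.68, 2.04, 19.3 and 17.8 in AE-PF libraries 1 to 4, between 19.7 and 28.7 in saline and between 38.7 and 79.7 in ND-RHL lung. Libraries 1 and 2 were the lowest for 6 of 6 markers, an order found in 41.2% of all genes tested. Ncr1, the receptor NKp46 that defines these cells, was at 0.649, 0.216, 2.26 and 1.72 FPKM. The sum of 8 T cell markers was 20.7, 11.7, 42.0 and 38.9, with 8 of 8 markers lowest in libraries 1 and 2, against 15.2 to 19.4 in saline and 39.2 to 81.5 in ND-RHL lung. For 6 conventional dendritic cell markers the sum was 21.5, 13.5, 35.1 and 33.5, with 6 of 6 lowest there, against 33.9 to 35.7 in saline and 32.6 to 43.6 in ND-RHL lung. Plasmacytoid dendritic cell markers were summed without Bst2, which is itself a member. The other 7 summed to 20.8, 22.5, 23.9 and 23.4, against 32.3 to 45.9 in saline and 29.8 to 63.2 in ND-RHL lung. This sum does not show the order of single markers, which are named here after their values were seen. Of the 5 tested, 2 were lowest in libraries 1 and 2, Siglech at 0.851, 0.262, 1.78 and 2.40 and Spib at 2.48, 0.965, 6.86 and 6.42. Cox6a2, at 3.80, 9.60, 2.78 and 2.11, was lowest in libraries 3 and 4. Tcf4, at 10.9, 9.40, 9.68 and 9.45, and Runx2 had neither order. Ccr9 and Klk1, too low for a test, were lowest in libraries 1 and 2. No marker of these lists was at 0 in all libraries, and the plasmacytoid marker Klk1 was at 0 in AE-PF library 2. The part of these cells in the members' spread was not tested.

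Other lists were also measured. Of all genes tested, 26.4% and 30.2% were called higher and lower in AE-PF against saline. These shares were 24.3% and 17.4% in ND-RHL against AE-PF, and 13.3% and 8.65% in ND-RHL against saline. The 10 monocyte and recruited macrophage markers summed to 1681, 2451, 1799 and 1769 FPKM in AE-PF libraries 1 to 4, 363 to 480 in saline and 461 to 976 in ND-RHL lung, and 10 of 10 were higher in AE-PF than saline lung. The largest part of the sum was Apoe, at 909, 1505, 1043 and 1012 FPKM in AE-PF libraries 1 to 4. Libraries 1 and 2 were the lowest for 4 of 10 markers and libraries 3 and 4 for another 4 (41.2% and 21.1% of all genes tested). Of 7 alveolar macrophage markers 4 were lower in AE-PF than saline lung (Siglecf, Fabp4, Car4 and Ear1, named after their values were seen), and 2 were higher in ND-RHL than AE-PF lung. Marco, Chil3 and Pparg did not pass. Marco and Chil3 had higher means in AE-PF than saline lung, Marco at 9.42 ± 10.7 against 5.44 ± 1.06 FPKM (SD, n = 4). The sum of all 7 was carried by Chil3, a secreted chitinase-like protein at 945, 727, 305 and 239.8 FPKM in AE-PF libraries 1 to 4. The other 6 summed to 58.6, 48.7, 56.4 and 52.6, against 115 to 157 in saline and 85.1 to 140 in ND-RHL lung. In saline lung the largest part of that sum was Car4, at 73.2 to 84.5 FPKM, and Fabp4 ran from 5.62 to 53.3. Other tissue markers moved with the groups too. Of 7 lung tissue markers 6 were lower in AE-PF than saline lung and 6 higher in ND-RHL than AE-PF lung. AE-PF libraries 1 and 2 were the lowest for 5 of the 7 (41.2% of all genes tested). The sums were 6244 to 10702 FPKM in AE-PF, 38798 to 54112 in saline and 18455 to 38401 in ND-RHL. Of 5 cardiac muscle markers 5 were lower in AE-PF than saline and 4 higher in ND-RHL than AE-PF lung, with sums of 25.8 to 46.8 in AE-PF, 312 to 545 in saline and 131 to 679 in ND-RHL. Of 6 neutrophil markers 5 were lower in AE-PF and 3 lower in ND-RHL than saline lung, and of 6 B and plasma cell markers 5 were higher in ND-RHL than AE-PF lung. The part of these shifts in the members' group differences was not tested. The 8 glucocorticoid targets, a list added after the values could be seen, went the other way: AE-PF libraries 3 and 4 were the lowest for 7 of 8 (21.1% of all genes tested), and the sum was 378, 413, 282 and 278, against 226 to 277 in saline and 230.5 to 325 in ND-RHL lung. Fkbp5, which encodes a co-chaperone of the glucocorticoid receptor and is a standard target of it, was at 30.2, 42.8, 12.0 and 11.3 FPKM in AE-PF libraries 1 to 4, at 2.19 to 2.71 in saline and at 2.04 to 4.01 in ND-RHL lung. Its AE-PF values were thus above those of both other groups, and highest in the libraries where the members were lowest. Of the 8 targets, 3 were higher and 0 lower in AE-PF than saline lung (4 and 0 at an unadjusted p under 0.05, and 3 and 0 by limma-voom). In ND-RHL against AE-PF lung 3 were lower. Klf9 and Dusp1 had negative log2 differences in AE-PF against saline (-0.03 and -0.23). Dusp1 was lowest in AE-PF libraries 1 and 2, at 49.9, 45.5, 67.5 and 67.1 FPKM in libraries 1 to 4. The labels name no glucocorticoid for the AE-PF group, and the part of these signals in the members' spread was not tested.

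**Figure D3:**
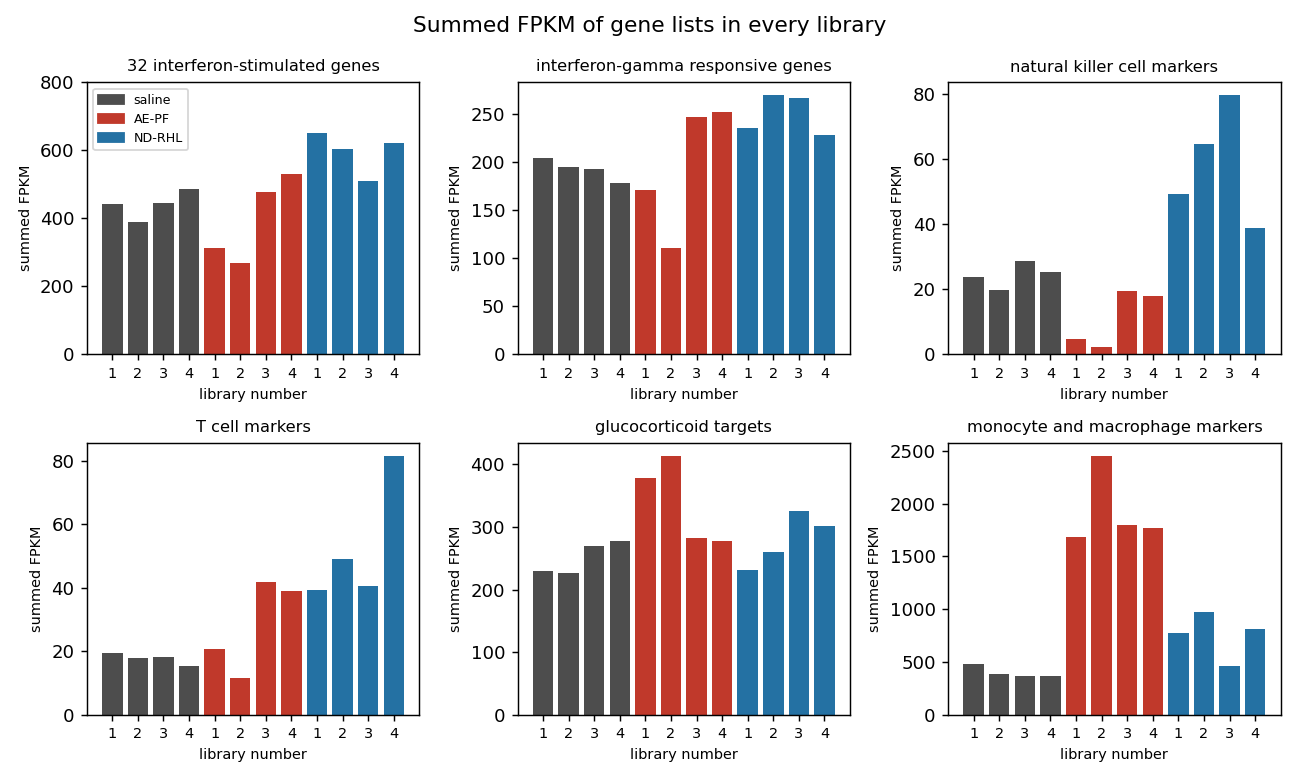
Bars give the summed FPKM of 6 gene lists (panels) in each of the 12 libraries, coloured by group, each axis starting at 0. AE-PF libraries 1 and 2 are the lowest of their group for the 32 members (311 and 267), the interferon-gamma responsive genes, the natural killer cell markers and the T cell markers, and the highest for the glucocorticoid targets.

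Of the transcription factors, Irf7 was higher in ND-RHL than saline lung, and Irf9 and Stat2 were lower in AE-PF than saline lung. Irf7 encodes the factor that drives most interferon alpha genes (chr7:141262706-141266481, minus strand, GRCm38, GENCODE M21, as are all gene positions that follow). Its FPKM in libraries 1 to 4 was 5.67, 5.23, 6.82 and 6.56 in saline, 5.35, 5.28, 12.2 and 13.9 in AE-PF and 12.7, 12.9, 9.57 and 12.2 in ND-RHL. The values of AE-PF libraries 1 and 2 lay within the saline range and those of libraries 3 and 4 at about the level of ND-RHL lung, whose 4 values were all above saline. The rise from saline to ND-RHL was 1.82-fold (log2 0.86 ± 0.26, SE; adjusted p = 0.0374), called in 15 of 23 alternatives. AE-PF against saline did not pass (1.34-fold, adjusted p = 0.192).

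Irf9 (chr14:55603571-55610030, plus strand), the DNA-binding subunit of ISGF3, was at 13.8, 14.5, 15.3 and 15.7 in saline, 7.46, 7.53, 12.1 and 12.3 in AE-PF and 14.6, 16.0, 14.0 and 14.6 in ND-RHL. All 4 AE-PF values were below all saline and all ND-RHL values, and those of libraries 1 and 2 were the lowest. It was 1.49-fold lower in AE-PF than saline lung (log2 -0.58 ± 0.14; adjusted p = 0.00523) and 1.49-fold higher in ND-RHL than AE-PF lung (log2 0.57 ± 0.14; adjusted p = 0.0085). The log2 difference between ND-RHL and saline lung was -0.00 ± 0.14 (adjusted p = 0.99). Stat2, the partner that carries the activation domain of ISGF3, was at 15.3, 16.6, 17.9 and 17.2 in saline, 9.25, 9.25, 14.5 and 15.8 in AE-PF and 13.8, 16.3, 14.8 and 14.9 in ND-RHL. The lowest values were those of AE-PF libraries 1 and 2, and library 4 was within the saline range. Stat2 was 1.38-fold lower in AE-PF than saline lung (adjusted p = 0.0218), a call lost without AE-PF library 1 or 2 and in 4 other alternatives, and ND-RHL against AE-PF did not pass (adjusted p = 0.121).

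In the ISG15 system Usp18 was higher in ND-RHL than AE-PF lung, and Isg15 passed in no comparison. Isg15, whose product is attached to other proteins much like ubiquitin, was at 13.0, 10.7, 14.5 and 16.0 in saline, 16.0, 12.4, 29.7 and 37.3 in AE-PF and 20.2, 30.6, 18.7 and 31.5 in ND-RHL. All 4 ND-RHL values and AE-PF libraries 3 and 4 were above the highest saline value, and AE-PF libraries 1 and 2 were within the saline range. With that spread no comparison passed: AE-PF was 1.58-fold above saline (adjusted p = 0.0887) and ND-RHL 1.78-fold above saline (adjusted p = 0.0756). Usp18 (chr6:121245906-121270917, plus strand), which removes ISG15 and blocks the receptor subunit IFNAR2, was at 5.39, 5.43, 6.26 and 5.76 in saline, 2.70, 2.64, 5.42 and 6.42 in AE-PF and 7.46, 8.43, 7.34 and 7.34 in ND-RHL. Its ND-RHL values were all above those of both other groups, and AE-PF libraries 1 and 2 lay far below saline. Usp18 was 1.72-fold higher in ND-RHL than AE-PF lung (log2 0.78 ± 0.20; adjusted p = 0.0105), and the difference from saline did not pass (adjusted p = 0.223).

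All 4 sensors were higher in ND-RHL than saline lung (13.3% of all genes tested). Zbp1 and Eif2ak2 were also higher in AE-PF than saline lung (26.4% of all genes tested). Zbp1 (chr2:173206612-173218923, minus strand), a sensor of left-handed RNA and DNA that can start necroptosis, was at 2.39, 2.20, 2.53 and 2.36 in saline, 4.88, 3.98, 6.23 and 7.20 in AE-PF and 5.77, 6.60, 5.30 and 5.62 in ND-RHL. Every AE-PF and every ND-RHL value was above every saline value, AE-PF libraries 1 and 2 included. It was 1.92-fold higher in AE-PF (log2 0.94 ± 0.13; adjusted p = 0.000123) and 2.02-fold higher in ND-RHL than saline lung (adjusted p = 0.000701), and the log2 difference between ND-RHL and AE-PF was 0.08 ± 0.13 (adjusted p = 0.665).

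Eif2ak2 (chr17:78852564-78882573, minus strand), which encodes PKR, the kinase that stops translation when double-stranded RNA is present, was at 6.15, 6.46, 7.32 and 7.55 in saline, 10.0, 9.64, 12.1 and 12.4 in AE-PF and 11.1, 12.7, 10.6 and 11.0 in ND-RHL. AE-PF and ND-RHL values were again all above saline, and the AE-PF libraries differed 1.29-fold at most, the smallest ratio of the members. It was 1.53-fold higher in AE-PF (log2 0.61 ± 0.09; adjusted p = 0.000221) and 1.57-fold higher in ND-RHL than saline lung (adjusted p = 0.00109), with a log2 difference of 0.04 ± 0.09 between the challenged groups (adjusted p = 0.74).

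Ifih1 (chr2:62595798-62646255, minus strand) encodes MDA5, a sensor of long double-stranded RNA, and was at 5.27, 5.54, 5.82 and 5.77 in saline, 5.55, 4.76, 6.98 and 7.21 in AE-PF and 8.14, 9.97, 8.39 and 7.69 in ND-RHL. ND-RHL values were above all others, and AE-PF values lay on both sides of the saline range. Ifih1 was 1.35-fold above AE-PF (adjusted p = 0.00967) and 1.44-fold above saline lung (adjusted p = 0.00772). Dhx58, which encodes the related helicase LGP2, was at 2.37, 2.16, 2.53 and 2.21 in saline, 2.42, 2.33, 3.43 and 3.63 in AE-PF and 4.21, 4.47, 4.02 and 3.51 in ND-RHL. AE-PF library 4 overlapped the ND-RHL range and libraries 1 and 2 the saline range. It was 1.29-fold higher in ND-RHL than AE-PF lung (adjusted p = 0.0216), a call lost in 8 of 22 alternatives, and 1.52-fold higher than in saline lung (adjusted p = 0.004).

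No IFIT gene passed in any comparison. By limma at an unadjusted p under 0.05, 1 of the 4 was lower in AE-PF than saline lung, 1 was higher in ND-RHL than AE-PF and 1 higher in ND-RHL than saline lung, and limma-voom called 1 higher in AE-PF. The 4 genes lie side by side at chr19:34550694-34650009. Ifit1, which binds RNA without a methylated cap, was at 8.81, 7.70, 9.99 and 10.2 in saline, 5.57, 4.48, 13.4 and 14.1 in AE-PF and 11.0, 15.8, 9.24 and 11.4 in ND-RHL, and Ifit3, its partner, was at 27.7, 30.9, 29.3 and 23.2 in saline, 19.8, 13.1, 36.1 and 38.9 in AE-PF and 29.3, 44.7, 26.1 and 25.7 in ND-RHL. In both genes AE-PF libraries 1 and 2 were below every saline value and libraries 3 and 4 above every saline value, so that the group means of Ifit3 (27.8 ± 3.29, 27.0 ± 12.5 and 31.5 ± 8.98 FPKM in saline, AE-PF and ND-RHL; SD, n = 4) average over a split. Ifit3b was at 6.76, 5.80, 6.72 and 5.78 in saline, 2.61, 2.08, 6.38 and 5.88 in AE-PF and 6.10, 8.33, 6.06 and 5.72 in ND-RHL. Here AE-PF libraries 3 and 4 stayed within the saline range. Ifit3 and Ifit3b are near-identical copies, so reads may have been divided between them, and their single values are uncertain. In Ifit2, which lacked the ISRE letters in its window, AE-PF libraries 1 and 2 lay within the saline range and libraries 3 and 4 above it, at 8.99, 9.15, 11.9 and 13.9 against 9.04, 8.95, 8.39 and 9.40 in saline and 11.1, 12.4, 10.9 and 10.0 in ND-RHL lung.

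Of the 5 OAS genes, 2 were higher in ND-RHL than AE-PF lung and 2 higher than in saline lung (24.3% and 13.3% of all genes tested). In AE-PF against saline 0 passed (1 higher at an unadjusted p under 0.05, and 0 by limma-voom). These enzymes make 2-5A, which activates the RNA-cutting enzyme RNase L, or are relatives of them. Oas1a was at 5.07, 4.41, 5.45 and 5.55 in saline, 5.64, 3.90, 9.91 and 12.5 in AE-PF and 11.7, 11.5, 9.00 and 11.5 in ND-RHL. AE-PF library 2 was below the saline range, and the other AE-PF libraries and all ND-RHL values were above it, library 1 only just. Oas1a was 1.95-fold higher in ND-RHL than saline lung (log2 0.96 ± 0.26; adjusted p = 0.0226), called in 18 of 23 alternatives. It belongs to a family of close copies, and its level is less certain for that reason.

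Oasl2, a relative with ubiquitin-like domains, was at 8.28, 7.02, 9.84 and 9.44 in saline, 6.21, 5.45, 10.5 and 12.6 in AE-PF and 15.9, 15.7, 12.9 and 13.5 in ND-RHL. All ND-RHL values were above all values of both other groups, and AE-PF libraries 1 and 2 were below every saline value. It was 1.68-fold above AE-PF (adjusted p = 0.0156) and 1.61-fold above saline lung (adjusted p = 0.0378), called in 21 and 15 of 23 alternatives. Oas2 was at 4.34, 4.47, 5.76 and 6.15 in saline, 3.44, 2.87, 6.19 and 7.44 in AE-PF and 8.58, 8.15, 6.17 and 9.29 in ND-RHL. ND-RHL values were all above saline, but AE-PF libraries 3 and 4 overlapped them. Oas2 was 1.58-fold higher in ND-RHL than AE-PF lung (adjusted p = 0.039), lost in 10 of 23 alternatives. Oas3, the member with the lowest saline level (1.01 ± 0.240 FPKM; SD, n = 4), and Oasl1, which restrains the translation of Irf7 mRNA, had all 4 ND-RHL values above saline without passing the test (adjusted p = 0.0594 and 0.0731).

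Among the other antiviral effectors, Mx1 was higher in both challenged groups, Rsad2 and Samhd1 in ND-RHL against saline lung, and Cmpk2 was lower in AE-PF lung. Mx1 encodes a GTPase that blocks influenza-type viruses in the nucleus, and many laboratory strains carry a defective copy. It was at 1.76, 1.92, 1.97 and 2.12 in saline, 2.58, 2.32, 4.57 and 5.59 in AE-PF and 4.09, 3.94, 3.05 and 5.19 in ND-RHL. Every AE-PF and ND-RHL value was above every saline value, with AE-PF libraries 1 and 2 the lowest of these 8. Mx1 was 1.56-fold higher in AE-PF (adjusted p = 0.0196; lost without AE-PF library 3, adjusted p = 0.0553) and 1.71-fold higher in ND-RHL than saline lung (adjusted p = 0.0218, called in 18 of 22 alternatives). Mx2, annotated as a polymorphic pseudogene, had means of 1.26 ± 0.0995, 1.35 ± 0.441 and 1.62 ± 0.321 FPKM (SD, n = 4) and no call.

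Rsad2 encodes viperin, which makes a chain-terminating nucleotide, and Cmpk2 encodes a mitochondrial nucleotide kinase. They lie head to head on chromosome 12, with 12751 bases between them (Rsad2 at chr12:26442746-26456452, minus strand; Cmpk2 at chr12:26469204-26479837, plus strand). Rsad2 was at 1.53, 1.11, 1.90 and 1.89 in saline, 2.32, 1.35, 4.27 and 5.12 in AE-PF and 3.23, 4.73, 2.79 and 3.67 in ND-RHL. All ND-RHL values and all AE-PF values except that of library 2 were above saline. The difference between ND-RHL and saline lung was 1.76-fold (adjusted p = 0.047; lost in 13 of 22 alternatives). Cmpk2 was at 6.84, 7.34, 7.39 and 7.17 in saline, 2.75, 2.17, 4.94 and 5.64 in AE-PF and 8.58, 8.08, 7.03 and 6.32 in ND-RHL. All 4 AE-PF values were below all saline and ND-RHL values. Cmpk2 was 1.76-fold lower in AE-PF than saline lung (log2 -0.81 ± 0.20; adjusted p = 0.00513) and 1.82-fold higher in ND-RHL than AE-PF lung (log2 0.86 ± 0.20; adjusted p = 0.00608).

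The ratio of Cmpk2 to Rsad2, taken on FPKM + 1, was 3.16 in saline, 1.17 in AE-PF and 1.86 in ND-RHL lung. These are geometric means of 4 libraries, and the ranges of the 3 groups did not overlap. For low genes such a ratio is less extreme than that of FPKM, and ratios of plain FPKM were not compared. Each of the 3 differences had an exact permutation p of 0.0286 (2-sided), the smallest that 4 libraries against 4 allow, and 0.0735 after adjustment over 18 ratios of 6 neighbouring pairs of members. The ratio of Oas3 to Oas2, which lie 3244 bases apart on chromosome 5, was 0.326, 0.460 and 0.338, also on FPKM + 1. It was higher in AE-PF than in each of the other groups, with the same exact p and adjusted p. No ratio of the 18 passed after adjustment.

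Samhd1, which breaks down deoxynucleotides and so starves retroviruses, was at 24.1, 25.2, 28.9 and 25.8 in saline, 25.9, 20.6, 33.6 and 34.8 in AE-PF and 33.7, 40.8, 39.9 and 34.6 in ND-RHL. All ND-RHL values were above saline, and AE-PF library 4 overlapped them. Samhd1 was 1.41-fold higher in ND-RHL than saline lung (adjusted p = 0.0295, called in 17 of 23 alternatives) and 1.31-fold higher than in AE-PF lung (adjusted p = 0.0484; lost in 16 of 23 alternatives). Bst2, among the most abundant members, was at 65.5, 68.6, 76.7 and 75.4 in saline, 56.1, 45.0, 85.5 and 88.6 in AE-PF and 81.3, 92.0, 88.6 and 91.7 in ND-RHL. Every saline value was above AE-PF libraries 1 and 2 and below all other challenged libraries, and no comparison passed (adjusted p = 0.63, 0.0904 and 0.257 in AE-PF against saline, ND-RHL against AE-PF and ND-RHL against saline).

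**Figure D4:**
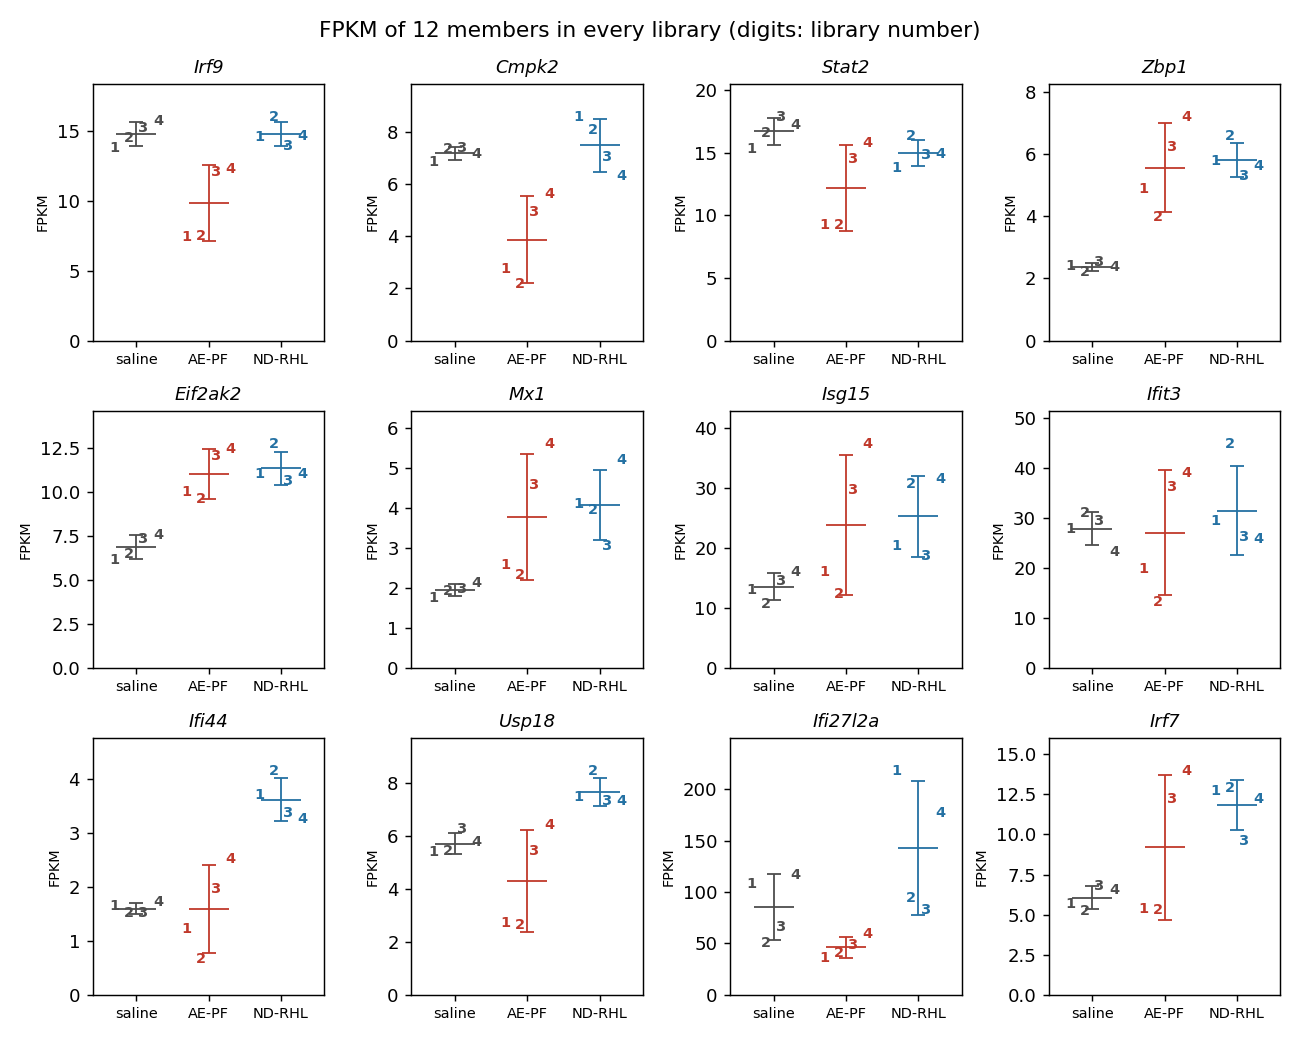
FPKM of 12 members (panels) in saline, AE-PF and ND-RHL lung; each digit is the number of a library, the long bar is the mean and the error bars are the SD of 4 libraries, and each axis starts at 0. AE-PF libraries 1 and 2 are the lowest of their group in every panel, and Zbp1, Eif2ak2 and Mx1 are the panels in which all AE-PF values are above all saline values.

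Of the remaining 8 members, 3 were lower in AE-PF than saline lung (30.2% of all genes tested). In ND-RHL against AE-PF lung 5 were higher (24.3% of all genes tested). Ifi44, a cytoplasmic antiviral protein, was at 1.64, 1.52, 1.51 and 1.73 in saline, 1.22, 0.668, 1.97 and 2.52 in AE-PF and 3.70, 4.14, 3.37 and 3.26 in ND-RHL. All ND-RHL values were above every other value, and AE-PF values ran from below to above the saline range. It was 1.85-fold above AE-PF (log2 0.89 ± 0.19; adjusted p = 0.0033) and 1.77-fold above saline lung (log2 0.83 ± 0.19; adjusted p = 0.0105), and these calls held in all 22 alternatives that tested it.

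Ifi27l2a (chr12:103442167-103443680, minus strand), a small hydrophobic protein of intracellular membranes, had the highest mean level of the members in saline and ND-RHL lung (Bst2 had it in AE-PF lung) and was at 108, 50.7, 65.9 and 117 in saline, 36.3, 40.5, 48.5 and 59.5 in AE-PF and 217, 94.5, 82.5 and 177 in ND-RHL. Every ND-RHL value was above every AE-PF value, while saline libraries ran from within to far above the AE-PF range. The difference between ND-RHL and AE-PF lung was 2.86-fold (log2 1.51 ± 0.34; adjusted p = 0.00505), the largest of the members, and that between AE-PF and saline lung did not pass (1.76-fold lower, adjusted p = 0.0618). It was the member that varied most within saline and ND-RHL lung, 2.30-fold and 2.63-fold between the highest and lowest library. Rtp4, a chaperone of membrane receptors that also dampens the interferon response, was at 11.6, 10.8, 14.9 and 13.1 in saline, 5.98, 5.30, 12.1 and 13.5 in AE-PF and 18.5, 17.6, 16.5 and 15.0 in ND-RHL. Its ND-RHL values were above all others. Rtp4 was 1.87-fold higher in ND-RHL than AE-PF lung (adjusted p = 0.0118).

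Xaf1, which promotes apoptosis by opposing the inhibitor XIAP, was at 5.93, 6.77, 7.39 and 7.08 in saline, 4.31, 3.56, 5.52 and 6.12 in AE-PF and 7.57, 9.14, 8.76 and 6.68 in ND-RHL. AE-PF values were below all ND-RHL values and overlapped saline only in library 4. It was 1.34-fold lower in AE-PF than saline lung (adjusted p = 0.0203; lost without AE-PF library 1 or 2 and in 3 other alternatives) and 1.55-fold higher in ND-RHL than AE-PF lung (adjusted p = 0.00395). Parp14, a mono-ADP-ribosyltransferase, was at 15.7, 15.8, 17.3 and 16.4 in saline, 9.61, 8.04, 15.2 and 16.1 in AE-PF and 16.8, 19.4, 18.0 and 16.3 in ND-RHL. Only AE-PF libraries 1 and 2 were well below the saline range. Its fall of 1.35-fold in AE-PF sat at the threshold (adjusted p = 0.04998) and was lost in 16 of 23 alternatives. Parp14 was 1.46-fold higher in ND-RHL than AE-PF lung (adjusted p = 0.0274), called in 14 of 23 alternatives.

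Slfn5, a nuclear Schlafen protein, was at 35.0, 35.7, 37.9 and 41.2 in saline, 23.1, 18.3, 29.1 and 32.1 in AE-PF and 28.8, 34.9, 32.2 and 27.5 in ND-RHL. All AE-PF values were below saline, and the ND-RHL values were below saline too. It was 1.47-fold lower in AE-PF than saline lung (log2 -0.56 ± 0.15; adjusted p = 0.00697), and in ND-RHL against saline the log2 difference was -0.28 ± 0.15 (adjusted p = 0.198). Trim30a, a ligase that restrains TLR signalling, and Parp9, which acts with the ligase DTX3L, had no call. Trim30a had means of 12.3 ± 2.07, 13.4 ± 4.48 and 17.7 ± 1.32 FPKM and Parp9 of 10.4 ± 0.201, 11.2 ± 2.08 and 13.0 ± 0.852 FPKM in saline, AE-PF and ND-RHL lung (SD, n = 4). In both genes all ND-RHL values were above all saline values.

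The inducing ligands were at or near the floor. Of 20 interferon genes looked for, 8 were in the table and 0 reached the level for a test. Ifnb1, the gene of interferon beta, was listed at 0 in 11 libraries and at 0.0815 FPKM, 1 fragment, in saline library 4. Ifng, the gene of interferon gamma, was between 0 and 0.256 FPKM with at most 6 fragments in a library. No difference in these ligands was detectable at this depth.

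Of 11 receptor and JAK-STAT genes tested, 6 were higher and 1 lower in AE-PF than saline lung, 2 were higher and 4 lower in ND-RHL than AE-PF lung, and 3 were higher and 0 lower in ND-RHL than saline lung (1 lower at an unadjusted p under 0.05, and 0 by limma-voom). Of all genes tested, the shares called higher and lower were 26.4% and 30.2%, 24.3% and 17.4%, and 13.3% and 8.65% in these 3 comparisons. The same shares apply to the lists that follow. Ifnar1, a chain of the type I receptor, was at 15.9, 16.4, 16.4 and 15.6 in saline, 21.2, 20.7, 22.7 and 22.6 in AE-PF and 17.8, 21.5, 19.2 and 16.4 in ND-RHL. All its AE-PF values were above saline, by 1.33-fold (adjusted p = 0.000508), and libraries 1 and 2 were close to 3 and 4. Ifnar2, the other chain, did not pass (adjusted p = 0.599 in AE-PF against saline).

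Genes that sense nucleic acid or LPS act upstream of interferon. Of 21 tested, 13 were higher and 3 lower in AE-PF than saline lung, 2 higher and 8 lower in ND-RHL than AE-PF, and 9 higher and 0 lower in ND-RHL than saline lung (2 lower at an unadjusted p under 0.05, and 1 by limma-voom). Sting1, the adaptor for cytosolic DNA, rose 2.69-fold in AE-PF from 8.69 ± 1.12 to 25.1 ± 2.27 FPKM (SD, n = 4; adjusted p = 2.1e-06) and was 1.82-fold lower in ND-RHL (adjusted p = 0.000121). Tlr7, the endosomal receptor for single-stranded RNA, rose 3.39-fold (adjusted p = 3.9e-06). Irf1, a factor that binds the same promoter element, fell 1.93-fold in AE-PF, from 32.8 ± 2.01 to 17.3 ± 5.95 FPKM (adjusted p = 0.00165). The 10 monocyte and recruited macrophage markers, cells rich in Tlr7 and Sting1, were higher in AE-PF lung as given above, and their part was not tested.

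Of 11 genes of ISG15 conjugation and of negative regulators, 5 were higher and 2 lower in AE-PF than saline lung, 3 higher and 4 lower in ND-RHL than AE-PF, and 1 higher and 0 lower in ND-RHL than saline lung (0 lower at an unadjusted p under 0.05 and by limma-voom). Socs3, an inhibitor of cytokine receptors best known for the interleukin 6 pathway, was 2.05-fold higher in AE-PF (adjusted p = 8.1e-05) and 2.52-fold lower in ND-RHL than AE-PF lung (adjusted p = 5.5e-05). Uba7 and Herc6, the first and last enzymes of ISG15 attachment, were 1.50-fold and 1.35-fold higher in ND-RHL than AE-PF lung (adjusted p = 0.0115 and 0.0213).

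A further 47 interferon-stimulated genes outside the members showed 11 higher and 11 lower in AE-PF than saline lung, 25 higher and 6 lower in ND-RHL than AE-PF, and 20 higher and 0 lower in ND-RHL than saline lung (3 lower at an unadjusted p under 0.05, and 2 by limma-voom). Their median log2 differences were -0.09, 0.37 and 0.37. In 39 of 47, libraries 1 and 2 were the lowest of AE-PF lung (41.2% of all genes tested). Lgals3bp, a secreted glycoprotein that binds galectin 3, rose 2.33-fold in AE-PF (adjusted p = 3.5e-06), as did the DNA-binding PYHIN genes Ifi204 (2.87-fold, adjusted p = 1.3e-05) and Ifi211 (2.72-fold, adjusted p = 1.9e-05), which are expressed in macrophages. Slfn4, a Schlafen gene of myeloid cells, fell 2.91-fold and Isg20, an RNA exonuclease, 1.77-fold in AE-PF (adjusted p = 7.3e-05 and 0.000105). Ddx60, a helicase linked to RIG-I signalling, was 1.47-fold above AE-PF and 1.64-fold above saline lung after ND-RHL (adjusted p = 0.000176 and 0.000164). Ifi204 and Ifi211 were 1.80-fold and 2.01-fold lower in ND-RHL than AE-PF lung (adjusted p = 0.0013 and 0.000509).

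Of 18 interferon-gamma responsive genes, many of which type I interferon also induces, 3 were higher and 3 lower in AE-PF than saline lung, 6 higher and 2 lower in ND-RHL than AE-PF, and 4 higher and 0 lower in ND-RHL than saline lung (0 lower at an unadjusted p under 0.05 and by limma-voom). In 17 of 18 the lowest AE-PF values were those of libraries 1 and 2 (41.2% of all genes tested). Cxcl10, a chemokine for T cells, rose 4.11-fold in AE-PF, from 0.520 ± 0.156 to 5.95 ± 3.09 FPKM (adjusted p = 0.000421), and Gbp4, a guanylate-binding protein, fell 2.50-fold, from 12.9 ± 0.685 to 5.11 ± 2.88 FPKM (SD, n = 4; adjusted p = 0.00329). Psmb9, a subunit of the immunoproteasome, was 1.83-fold higher in ND-RHL than AE-PF lung (adjusted p = 0.0165). The 2 called lower in that comparison were Cxcl10 (2.36-fold, adjusted p = 0.0135) and Iigp1 (1.41-fold, adjusted p = 0.0421).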

How the data were processed

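Polyadenylated RNA of mouse lung was sequenced on a DNBSEQ-G400 from NEBNext Ultra libraries, per the labels' protocols. The authors deposited 1 table of FPKM values, 1 column per library and not pooled. Tools listed without roles per the submitters' processing notes are STAR 2.7.9a, featureCounts (Subread 2.0.1), Trim Galore 0.6.6, FastQC and DESeq2 1.30.1, and the builds listed are mm10 and GRCm38. Settings for multiply mapped reads and strand are not given in the sources used here, so values of near-identical, overlapping or antisense genes are less certain. Groups and replicate numbers come from the sample titles.

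The comparisons used limma 3.58.1 (R 4.3.3) with a variance trend on log2(FPKM + 1), 2-sided, over the genes with at least 1 FPKM in at least 4 libraries, all 12 libraries sharing 1 spread with 9 residual degrees of freedom. Fold is 2 to the power of the log2 difference. Because the table held FPKM, the plan for raw counts did not apply. Whole fragments were worked out for 35599 of 35599 genes (tolerance 1e-05 fragments), and limma-voom on them was an alternative. The fit was tested on simulated data with levels and spread taken from saline lung for all libraries (14724 genes). There 80.8% of genes with a 2-fold and 98.0% with a 4-fold change were recovered and 10 others called. The members' median SD was 0.467 in AE-PF and 0.108 in saline lung, so these rates do not describe the members in comparisons with AE-PF lung. No pair of libraries of a group agreed within sampling noise. AE-PF libraries 3 and 4 were the most alike, with a chi-square per gene of 3.31, against 9.04 to 74.0 for the other pairs within groups.

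The members and lists were chosen with earlier results of these data known, and the glucocorticoid list was added after the values could be seen. All members may be named. From every other list up to 4 genes per comparison and direction with the smallest p among those called were named, plus Ifnb1, Ifng, Ifnar1 and Ifnar2, and 1 gene of that rule is not reported here; Ncr1 and Sftpc were named from the marker lists as defining genes. Same-numbered saline and ND-RHL libraries deviated together (correlations of deviations 0.114 to 0.397), which the rule used counts as paired. Differently numbered libraries were not compared, so this does not show a pairing by number. No label ties the numbers to an animal or day. Promoter sequences are RefSeq's and gene positions GENCODE M21's, both matched by symbol or identifier. The positions in the deposited table were not used, since 0 of 32 members had the same start there. Ratios of neighbours within 50 kb, taken on FPKM + 1, were compared by an exact permutation test. The alternatives were other scalings, pseudocounts of 0.1 and 0.5, filters, array weights, limma-voom, a replicate block, 2 groups only and leaving out libraries.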

Additional observations from a re-analysis of the deposited data

Results flagged for a closer look

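The values of 111 groups of 4 libraries were searched for a library far from the others (a gap to the nearest value above Dixon's 95% limit as a share of the range), and 4 groups had such a library, where chance gives about 1 in 20. Usp18 was at 8.43 FPKM in ND-RHL library 2 and between 7.34 and 7.46 in the other ND-RHL libraries. Ifit3b was at 8.33 FPKM in ND-RHL library 2 and between 5.72 and 6.10 in the others. Oas1a was at 9.00 FPKM in ND-RHL library 3 and between 11.5 and 11.7 in the others. Ifnb1 was at 0.0815 FPKM in saline library 4, which is 1 fragment, and listed at 0 in the other saline libraries.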

How the results depend on the processing

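In AE-PF against saline, the counts of members higher and lower (3 and 6) became 8 and 3 with equal FPKM totals, 6 higher with quantile normalisation, 15 and 3 with array weights, and 10 higher when AE-PF library 2 and ND-RHL library 4 were both left out. Leaving out 1 library gave 2 to 10 higher and 3 to 9 lower. In ND-RHL against AE-PF (13 and 0), array weights gave 8 higher and leaving out 1 library 8 to 21, with 0 lower in each alternative run. In ND-RHL against saline (11 and 0), 5 were higher with no filter on low values, 18 with array weights, and 21 higher and 1 lower with only the 2 groups in the fit, and leaving out 1 library gave 5 to 16. The causes of these moves were not tested. Trim30a and Parp9, called in neither case, changed sign in AE-PF against saline: Trim30a was at -0.00207 (log2) without saline library 2, -0.0273 without AE-PF library 3 and -0.0842 without AE-PF library 4, and Parp9 at -0.0067 without AE-PF library 4. Leaving out 1 library gave -0.0842 to 0.247 for Trim30a and -0.0067 to 0.185 for Parp9.

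Equal totals moved the median of all genes in AE-PF against saline from -0.03 to 0.08, the members' median to 0.09, and the share of higher calls among all genes from 46.7% to 63.0%. In ND-RHL against AE-PF that share went from 58.2% to 37.8%, to 46.4% with quantile normalisation, and in ND-RHL against saline from 60.5% to 43.5% with quantile normalisation.

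With the replicate block the counts were 3 and 6, 14 and 0, and 11 and 0. The block took the call from Parp14 (adjusted p = 0.0553) and gave Ifi27l2a one (adjusted p = 0.0230) in AE-PF against saline, gave Trim30a one in ND-RHL against AE-PF (adjusted p = 0.0474), and changed no other member's call beside Rsad2 and Trim30a in ND-RHL against saline. Correlations of same-numbered deviations were -0.181 to 0.0651 for saline with AE-PF and -0.387 to 0.339 for AE-PF with ND-RHL, so the numbers do not pair those groups.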
